A study of Mus musculus with 20 samples.

Results

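Major histocompatibility complex (MHC) class II antigen presentation was followed through 8 genes in the distal colon (DC) of mice fed resistant potato starch (RPS). The genes were chosen by name as the classical class II chains H2-Aa, H2-Ab1 and H2-Eb1, the invariant chain Cd74, the peptide editors H2-DMa, H2-DMb1 and H2-DMb2, and the class II transactivator Ciita. All 8 were found among the 26619 genes of the count table by their Ensembl identifiers, and all 8 passed the filter on low counts, as did 17893 genes in all.

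Class II molecules are pairs of an alpha and a beta chain that carry peptides to the cell surface for recognition by CD4+ T cells. They are made mainly by B cells, dendritic cells and macrophages, and by epithelium exposed to interferon gamma. The invariant chain fills the groove of new class II molecules until it is degraded in endosomes, after which H2-DM, a pairing of the alpha chain H2-DMa with a beta chain from H2-DMb1 or H2-DMb2, removes its last fragment and favours the binding of stable peptides. Ciita does not bind DNA itself. It is recruited by the RFX, CREB and NF-Y proteins bound to the X and Y boxes of class II promoters, and its own gene is switched on constitutively in B cells and dendritic cells and by interferon gamma in many other cells.

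RNA was sequenced from a piece of DC, taken next to the anal end, from each of 20 male C57BL/6 mice (n = 5 per diet). After weaning, at 3 to 4 weeks of age, all mice were put on the Total Western Diet (TWD), a rodent diet matched in macronutrients and micronutrients to what people typically eat in the United States, and stayed on it for 6 weeks. They then received the TWD with 0, 2, 5 or 10% RPS for a further 3 weeks. The 0% RPS mice were the controls, and no mouse received a diet other than the TWD, so the effect of the TWD itself was not measured. Mice are named by their codes. The diet was read from the description of each sample, and for 3 mice another label gives a different level. RS10_717 is 5% by its description and 2% by that label, RS10_725 is 10% and 5%, and RS10_748 is 2% and 10%.

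The total count per mouse lay between 18429493 and 34974230. The controls held 31254832 to 34974230 counts and the 10% RPS mice 18429493 to 26595092, so depth moved with diet. Levels are given as CPM, the count of a gene over the scaled total of its library in megacounts. Markers of epithelium and smooth muscle were abundant in every mouse. The summed level of 8 epithelial markers was between 9239 and 14575 CPM and that of 6 smooth muscle markers between 5553 and 12147 CPM. Mice RS10_703, RS10_719 and RS10_721 stood apart on genes outside the class II list, among them pancreatic enzyme genes in RS10_721 and interferon-response genes in RS10_719. None of the 8 genes was highest or lowest in these 3 mice, and the results without them are given where they differ.

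Several promoters of the list could be set side by side. Windows of 250 bases before to 50 bases after the start of transcription were at hand for 5 of the 8 genes and for H2-Oa, H2-Ob and H2-Eb2, 3 other class II chains. They come from RefSeq on the build GRCm38.p6, not the GRCm39 build of the count data. The 120 bases from −150 to −31 are printed 5′ to 3′ on the strand of the gene, with capitals for matches to a Y box core (TGATTGG) and an X box core (AACNNATG, where N is any base). These letters were chosen after the sequences had been seen, and a match is a description of the letters, not of a bound protein. The first 3 sequences are the class II genes of the list that hold both matches, in the order X then Y.

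H2-DMb2, chr17:34145099-34145218, plus strand: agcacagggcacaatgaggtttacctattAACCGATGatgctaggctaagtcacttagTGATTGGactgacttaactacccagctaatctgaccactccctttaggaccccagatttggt

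H2-DMb1, chr17:34153041-34153160, plus strand: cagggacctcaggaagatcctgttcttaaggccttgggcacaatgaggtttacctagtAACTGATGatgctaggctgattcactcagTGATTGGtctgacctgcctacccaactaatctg

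H2-Eb1, chr17:34305717-34305836, plus strand: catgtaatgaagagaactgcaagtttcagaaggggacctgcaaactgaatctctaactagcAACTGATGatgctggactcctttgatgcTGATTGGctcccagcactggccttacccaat

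H2-Aa, whose window held the Y box letters but no match to the X letters as written, is also shown. A missing match to these letters does not show that an X box is absent.

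H2-Aa, chr17:34287854-34287973, minus strand: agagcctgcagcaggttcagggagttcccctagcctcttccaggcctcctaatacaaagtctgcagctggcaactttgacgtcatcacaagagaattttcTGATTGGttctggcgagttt

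H2-Ob, the beta chain of the H2-DM inhibitor H2-O, is printed because its level is taken up again with that of Ciita.

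H2-Ob, chr17:34238755-34238874, plus strand: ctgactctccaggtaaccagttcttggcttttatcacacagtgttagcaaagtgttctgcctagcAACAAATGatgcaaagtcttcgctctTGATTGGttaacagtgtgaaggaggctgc

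The X letters of H2-DMb2 began at −121 and its Y letters at −92, 29 bases apart. The same spacing of 29 bases was found in H2-DMb1, at −92 and −63. It was 28 bases in H2-Eb1, at −89 and −61, and 26 bases in H2-Ob, at −85 and −59. H2-Eb2 also held both, at −130 and −102. Searched on both strands, the Y letters were present in 2568 of 32851 promoter windows (7.82%) and the X letters in 2912 (8.86%). An X match followed by a Y match on the same strand within 25 to 30 bases was found in 6 windows (0.0183%), those of H2-DMb1, H2-DMb2, H2-Eb1, H2-Eb2, H2-Ob and BC051142. The letters were chosen after these class II sequences had been seen, and 25 to 30 bases enclose the spacings given above. The share is therefore no test of whether the pair is particular to class II genes. Both H2-Aa, at −50, and H2-Oa, at −45, held the Y letters alone, and H2-DMa held neither in its 2 windows.

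The genes differed widely in level. Per kilobase of merged exon, Cd74 (ENSMUSG00000024610, chromosome 18) was the most abundant at 136 ± 21.5 CPM per kb (SD, n = 20 mice). Next came H2-Eb1 at 50.1 ± 7.77, H2-Ab1 at 49.4 ± 7.66 and H2-Aa at 34.3 ± 5.38 CPM per kb. The peptide editors were lower, with H2-DMb1 at 6.60 ± 1.05, H2-DMb2 at 5.21 ± 1.34 and H2-DMa at 3.71 ± 0.413 CPM per kb. Ciita was the lowest at 1.01 ± 0.301 CPM per kb. The ranges over mice did not overlap between Cd74 and H2-Eb1, between H2-Aa and H2-DMb1, or between H2-DMa and Ciita. H2-Eb1 was above H2-Ab1 in only 13 of 20 mice, so the order of these neighbours was not separated. H2-DMb2 was above H2-DMa in 19 of 20 mice, and the remaining neighbours kept their order in all 20. Dividing by the longest transcript in place of the merged exons put H2-Ab1 (86.7 CPM per kb) above H2-Eb1 (73.1) and H2-DMa (7.75) above H2-DMb2 (5.88), so these orders rest on the length used.

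Of the genes, 6 lie in the class II region of chromosome 17 (GRCm39, GENCODE M39). On the plus strand, H2-DMa (ENSMUSG00000037649) spans chr17:34338515-34358958, H2-DMb2 (ENSMUSG00000037548) chr17:34362197-34370529 and H2-DMb1 (ENSMUSG00000079547) chr17:34372046-34379204. H2-Ab1 (ENSMUSG00000073421) follows at chr17:34476663-34488393. The annotated spans of H2-Aa (ENSMUSG00000036594, chr17:34493404-34506798, minus strand) and H2-Eb1 (ENSMUSG00000060586, chr17:34504236-34535648, plus strand) overlap. Ciita (ENSMUSG00000022504) lies at chr16:10297923-10347694 on the plus strand. The overlap of H2-Aa and H2-Eb1 touched 1.54% of the 50-base stretches of H2-Aa transcripts and 2.09% of those of H2-Eb1. The H2-DM beta chain genes are near copies: 22.7% of the 50-base stretches of H2-DMb1 (369 of 1629) also occur in H2-DMb2, and 18.9% of those of H2-DMb2 in H2-DMb1. Reads were 50 bases long and how reads matching both genes were counted is not given in the sources used here, so the split between these genes is uncertain. For H2-Ab1, H2-DMa and Ciita no stretch was shared with another gene on the same strand, and for Cd74 1.29% were. On the opposite strand, 9.55% of the stretches of H2-DMa (462 of 4840) occur in Brd2. Opposite-strand stretches of Gm64535 made up 14.6% of those of H2-DMb1 and 8.96% of those of H2-DMb2. Whether opposite-strand reads were counted is not given in the sources used here.

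For the classical chains no difference between diets was larger than the spread between mice. H2-Aa, the alpha chain of the I-A molecule, measured 144 ± 29.2 CPM in controls (SD, n = 5 mice), 148 ± 26.2 at 2%, 147 ± 19.9 at 5% and 150 ± 24.1 at 10% RPS. Its beta chain H2-Ab1 measured 125 ± 25.2, 122 ± 18.9, 131 ± 21.1 and 129 ± 18.3 CPM in the same order. H2-Eb1, the beta chain of the I-E molecule, measured 129 ± 23.8, 129 ± 21.1, 131 ± 18.7 and 133 ± 23.7 CPM. C57BL/6 mice are known to lack the I-E alpha chain H2-Ea, which was not analysed here, so the H2-Eb1 chain has no usual partner in this strain. Among controls, RS10_704 was the lowest mouse for all 3 chains, with 99.0 CPM of H2-Aa, 86.0 of H2-Ab1 and 87.8 of H2-Eb1. In the 10% RPS group, RS10_725 was the highest, with 188.1 CPM of H2-Aa, 159.7 of H2-Ab1 and 172.3 of H2-Eb1. These were also the lowest and highest mice of all 20 for the 3 chains, and RS10_725 is 1 of the 3 mice whose labels differ.

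At 10% RPS the log2 fold change of H2-Aa against controls was 0.06 ± 0.15 (SE), with a 95% interval from −0.25 to 0.36 and an adjusted p of 0.898 by the edgeR quasi-likelihood test. It was 0.04 ± 0.14 for H2-Ab1 (−0.25 to 0.34, adjusted p = 0.915) and 0.04 ± 0.14 for H2-Eb1 (−0.25 to 0.34, adjusted p = 0.917). The intervals leave room for a fall of about 0.25 or a rise of about 0.36 on the log2 scale but not for the 1.5-fold change used as a threshold. Under the other label, and without the 3 mice whose labels differ, the 3 changes at 10% RPS turned negative and stayed far from the threshold.

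**Figure D1:**
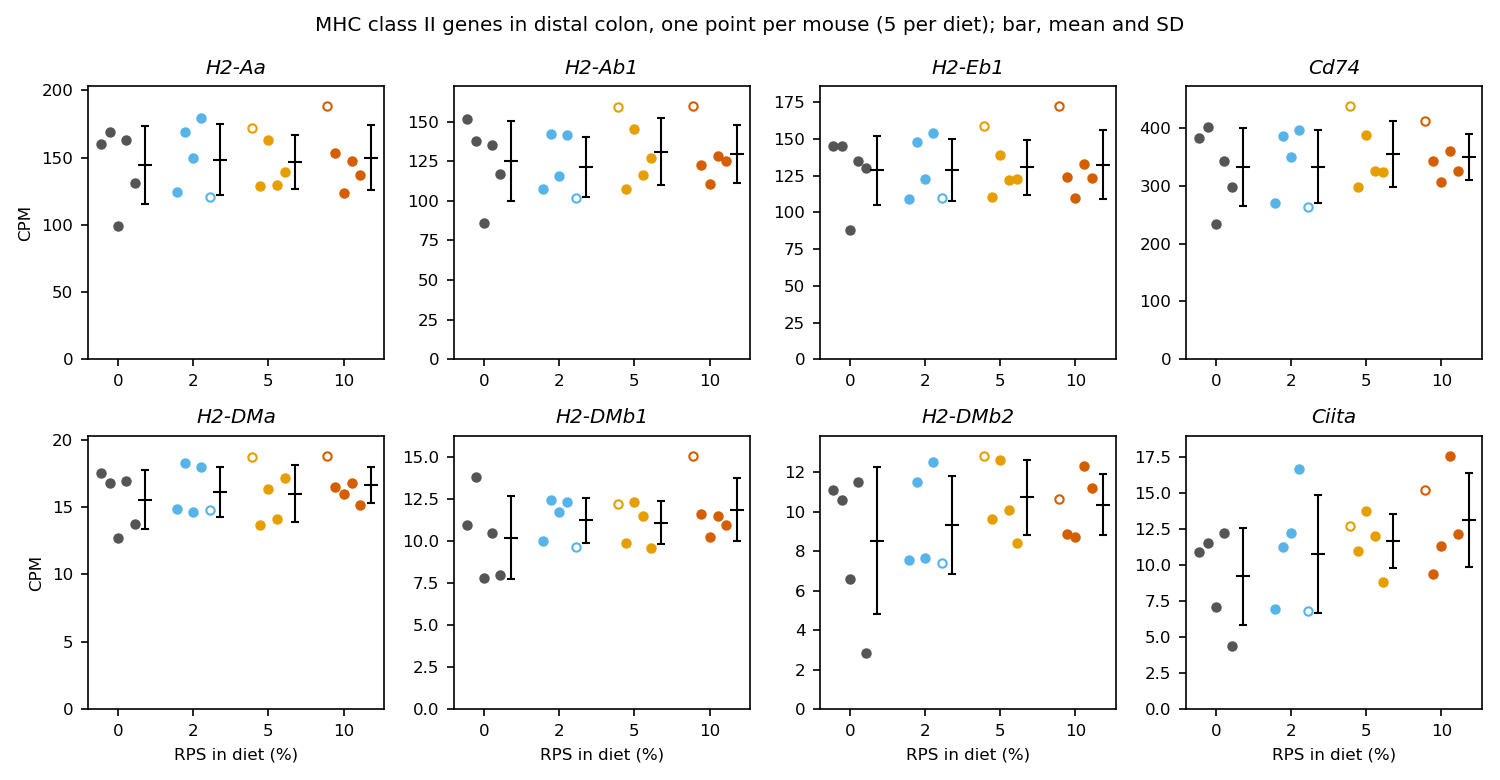
CPM of the 8 MHC class II genes in DC (y axis, from 0) against RPS in the diet in percent (x axis). Each point is a mouse (n = 5 per diet), open points are the 3 mice whose labels differ, and the black mark and bar give the mean and SD. The groups overlap for each gene, and RS10_708, the lowest control for H2-DMb2 (2.86 CPM) and Ciita (4.37 CPM), is the lowest point of both panels.

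For Cd74, the invariant chain, no difference between diets was larger than the spread either. The 5 controls measured 381.6, 401.6, 234.3, 343.1 and 298.5 CPM in RS10_701, RS10_703, RS10_704, RS10_707 and RS10_708. The 2% RPS mice measured 270.5, 386.4, 349.4, 395.6 and 262.5 CPM in RS10_709, RS10_712, RS10_715, RS10_716 and RS10_748. The 5% RPS mice measured 437.2, 297.1, 387.3, 325.0 and 323.2 CPM in RS10_717, RS10_718, RS10_719, RS10_721 and RS10_724, and the 10% RPS mice 411.6, 342.9, 306.6, 359.7 and 325.9 CPM in RS10_725, RS10_727, RS10_729, RS10_731 and RS10_784. All 4 groups overlapped, and only RS10_725 of the 10% RPS mice lay above every control. The means were 332 ± 67.3, 333 ± 63.1, 354 ± 57.1 and 349 ± 40.0 CPM with rising RPS. The log2 fold change at 10% RPS was 0.07 ± 0.14 (95% interval −0.23 to 0.38, adjusted p = 0.855).

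Of the peptide editors, H2-DMa, the alpha chain, varied least of the 8 genes, with a coefficient of variation of 11.8% within diets and means of 15.5 ± 2.18, 16.1 ± 1.84, 16.0 ± 2.12 and 16.6 ± 1.36 CPM. H2-DMb1, the more abundant beta chain, measured 10.2 ± 2.46, 11.2 ± 1.32, 11.1 ± 1.29 and 11.9 ± 1.86 CPM. Its log2 fold change at 10% RPS was 0.22 ± 0.15 (95% interval −0.08 to 0.52, unadjusted p = 0.147, adjusted p = 0.4998). Leaving out control RS10_703, with 13.8 CPM the highest control, moved it to 0.36 (unadjusted p = 0.0164, adjusted p = 0.165). Within the 10% RPS group RS10_725 measured 15.0 CPM, and the other 4 mice lay between 10.2 and 11.6 CPM.

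H2-DMb2, the other beta chain of H2-DM, spread more widely. Controls measured 11.1, 10.6, 6.58, 11.5 and 2.86 CPM, the last in RS10_708. The 2% RPS mice measured 7.55, 11.5, 7.67, 12.5 and 7.42 CPM, the 5% RPS mice 12.8, 9.63, 12.6, 10.1 and 8.43 CPM, and the 10% RPS mice 10.6, 8.86, 8.70, 12.3 and 11.2 CPM, each in the order of mice given for Cd74. RS10_708 lay far below the other 19 mice, the lowest of which held 6.58 CPM. Its 95 counts of H2-DMb2 compare with at most 391 in another mouse. The log2 fold change was 0.28 ± 0.27 at 10% RPS (95% interval −0.27 to 0.84, adjusted p = 0.661) and 0.33 ± 0.27 at 5% RPS (adjusted p = 0.724). The ratio of H2-DMb2 to H2-DMb1 in CPM averaged 0.871 ± 0.179 over the 20 mice. It was 0.360 in RS10_708, and the next lowest value was 0.654 in RS10_715. That of H2-Ab1 to H2-Aa, in contrast, stayed within 0.776 and 0.948.

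Ciita had the largest difference of the 8 genes at 10% RPS and did not pass the test. Controls measured 10.9, 11.5, 7.11, 12.3 and 4.37 CPM, the 2% RPS mice 6.95, 11.3, 12.2, 16.7 and 6.80 CPM, the 5% RPS mice 12.7, 10.99, 13.8, 12.0 and 8.83 CPM, and the 10% RPS mice 15.2, 9.35, 11.3, 17.6 and 12.2 CPM, again in the order of mice given for Cd74. The controls and the 10% RPS mice overlapped, and RS10_725 and RS10_731 were the only 10% RPS mice above every control. The means were 9.23 ± 3.37, 10.8 ± 4.10, 11.7 ± 1.89 and 13.1 ± 3.26 CPM with rising RPS. The fold change at 10% RPS was 1.42 (95% interval 0.967 to 2.10, log2 0.51 ± 0.27), with an unadjusted p of 0.0713 and an adjusted p of 0.373. The linear trend was 0.05 ± 0.02 log2 units per 1% RPS (95% interval 0.00 to 0.10, unadjusted p = 0.0622, adjusted p = 0.287). Over 31 alternative analyses the log2 fold change at 10% RPS lay between 0.31 and 0.64, and the unadjusted p fell under 0.05 in 5 of them, among them DESeq2 (adjusted p = 0.291) and limma-voom (adjusted p = 0.309).

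Across the list, 0 of the 8 genes passed the test at 10% RPS (adjusted p of at most 0.05 and at least 1.5-fold), where 0.0391% of all tested genes did. At 5% and 2% RPS 0 of 8 passed, beside 0% of all genes in each. The linear trend called 0 of 8 beside 2.1% of all genes, and the test of any difference between diets 0 of 8 beside 0.0727%. None of the 8 genes reached an unadjusted p under 0.05 by edgeR in any of these tests. All tested genes did so in 15.2% of cases at 10% RPS, 9.19% at 5% RPS, 1.41% at 2% RPS, 19.1% for the trend and 10.6% for any difference. DESeq2 and limma-voom also called none of the 8, and each gave Ciita an unadjusted p under 0.05 at 10% RPS and for the trend. The shares of all genes that DESeq2 and limma-voom called, or put under that p, are not given here. The diet groups overlapped for each of the 8 genes at each RPS level, while they did not overlap from controls for 2.28% of all genes at 10%, 1.04% at 5% and 0.24% at 2% RPS.

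The 8 log2 fold changes were small and mostly above 0. At 10% RPS all 8 were positive, with a median of 0.09 against −0.01 for all tested genes, but by the other diet label 4 of 8 were negative there, H2-Aa, H2-Ab1, H2-Eb1 and Cd74. The median was 0.08 at 5% RPS against −0.01 for all genes, and 0.05 at 2% RPS against 0.00, with 8 and 7 of 8 positive. The 3 comparisons share their controls, and the 8 genes varied together from mouse to mouse, so these signs are not separate observations. Between diet groups lay 0.827% (H2-Eb1) to 20.2% (Ciita) of the variance of log2 CPM of the 8 genes, where the median of all tested genes was 16.3%. With 5 mice per diet such a share is above 0 even where diet has no effect. It is therefore not an estimate of a diet effect.

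**Figure D2:**
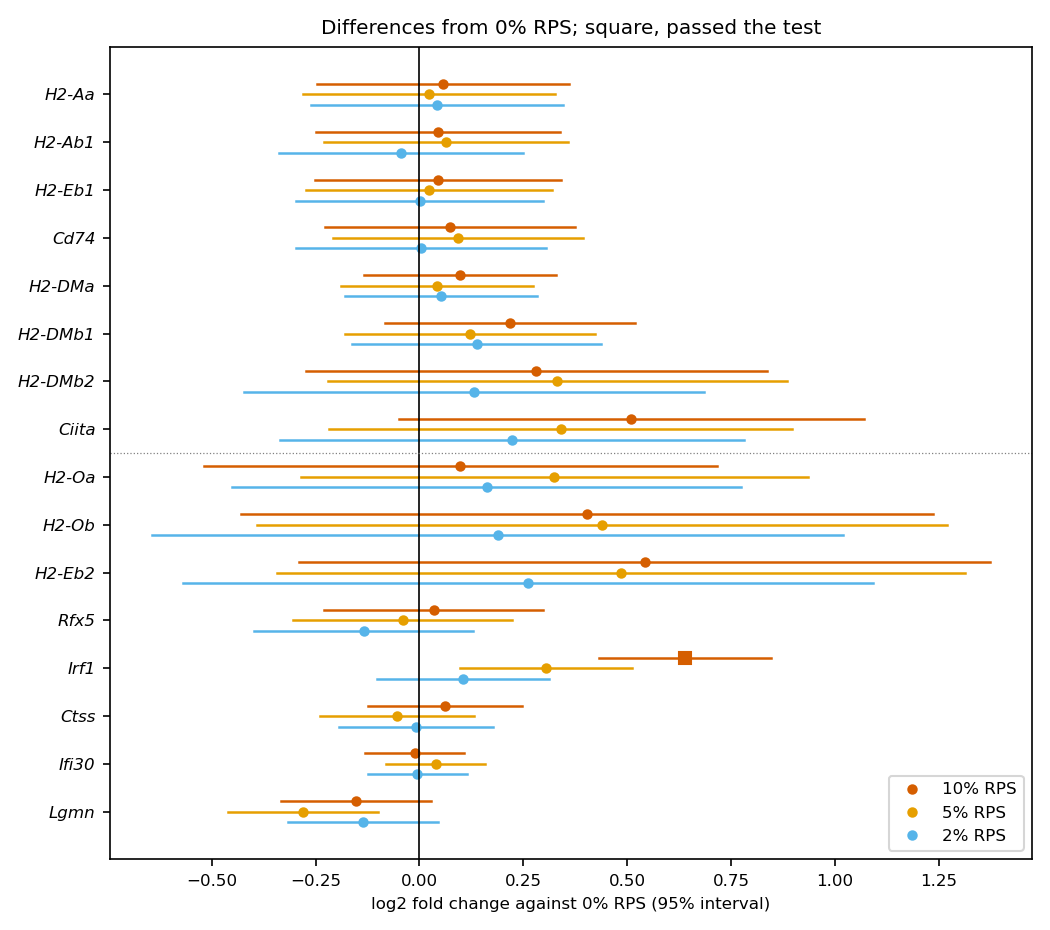
Log2 fold change against 0% RPS (x axis) with its 95% interval for the 8 MHC class II genes (above the dotted line) and 8 other genes of the pathway (below it) at 10, 5 and 2% RPS (colours). The intervals of the 8 genes all include 0, and the only square, which marks a gene that passed the test, is Irf1 at 10% RPS (0.64).

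The other genes of the class II pathway were taken from a list of 31 symbols, of which 29 were in the count table and 28 passed the filter. At 10% RPS 1 of 28 was called, Irf1, which rose, beside 0.0391% of all tested genes. Counting unadjusted p under 0.05, 4 of 28 reached it at 10% RPS (3 higher, 1 lower), 5 at 5% RPS (2 higher, 3 lower) and 0 at 2% RPS, beside 15.2, 9.19 and 1.41% of all genes. At 5% and 2% RPS 0 of 28 were called, beside 0% of all genes in each. The linear trend called 1 of 28, Irf1, beside 2.1% of all genes. For the trend 5 of 28 reached an unadjusted p under 0.05 (4 higher, 1 lower), beside 19.1% of all genes. The median log2 fold change of the 28 genes was 0.02 at 10% RPS.

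The other class II chains were not called. H2-Oa and H2-Ob form H2-O, the inhibitor of H2-DM found mainly in B cells. H2-Ob measured 14.6 ± 7.91 CPM in controls and 19.3 ± 6.47 CPM at 10% RPS, a log2 difference of 0.40 ± 0.40 (adjusted p = 0.675). H2-Oa measured 2.41 ± 0.867 and 2.57 ± 0.871 CPM, a log2 difference of 0.10 ± 0.30 (adjusted p = 0.912). The nonclassical chain H2-Eb2 measured 4.06 ± 2.12 and 5.89 ± 2.03 CPM, a log2 difference of 0.54 ± 0.40 (adjusted p = 0.551). RS10_708 was the lowest control for each of these 3 genes, at 3.49 CPM of H2-Ob, 0.934 CPM of H2-Oa and 0.994 CPM of H2-Eb2.

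Among the genes of interferon gamma signalling, Irf1, a transcription factor that acts on a Ciita promoter, was higher at 10% RPS. Controls measured 148.0, 147.4, 141.2, 120.0 and 113.3 CPM in RS10_701, RS10_703, RS10_704, RS10_707 and RS10_708, and the 10% RPS mice measured 211.5, 206.0, 204.7, 174.9 and 246.1 CPM in RS10_725, RS10_727, RS10_729, RS10_731 and RS10_784. All 5 of the 10% RPS mice lay above all 5 controls, where groups did not overlap for 2.28% of all genes. The paper already reports Irf1 as raised at 10% RPS in DC, and the pathway list was chosen with earlier results known. Setting Irf1 beside all genes is therefore no independent test of its response. The means were 134 ± 16.2, 144 ± 5.87, 166 ± 24.3 and 209 ± 25.4 CPM with rising RPS, and Irf1 rose by 0.64 ± 0.10 on the log2 scale at 10% RPS (adjusted p = 0.00929). It also passed the test of the trend, at 0.06 per 1% RPS (adjusted p = 0.00067), and of any difference (adjusted p = 0.0254). Irf1 was called at 10% RPS in 27 of 31 alternative analyses, most of which leave out 1 mouse, and for the trend in 29 of 30. DESeq2 and limma-voom were among those that called both. By the other label neither call held: the change at 10% RPS was 0.53 (adjusted p = 0.372) and the trend had an adjusted p of 0.166. Without the 3 mice with differing labels the trend was still called (adjusted p = 0.0133). At 10% RPS the call was also lost in other analyses: with only the 2 diets compared in the fit the change was 0.64 (adjusted p = 0.055), without the 3 mice with differing labels it was 0.64 (adjusted p = 0.0728), and without RS10_784 it was 0.57 (adjusted p = 0.0341), under the 1.5-fold threshold.

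Jak2, a kinase of the interferon gamma receptor, gave a log2 fold change of 0.21 ± 0.08 at 10% RPS (unadjusted p = 0.0142, adjusted p = 0.209). Ifng, the interferon gamma gene itself, was not tested: it held 0 counts in 13 mice and at most 2 counts in any mouse, so no difference was detectable at this depth. A rise of Irf1 stood beside Ciita values that did not pass the test, and no test of the difference between the 2 genes was made.

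**Figure D3:**
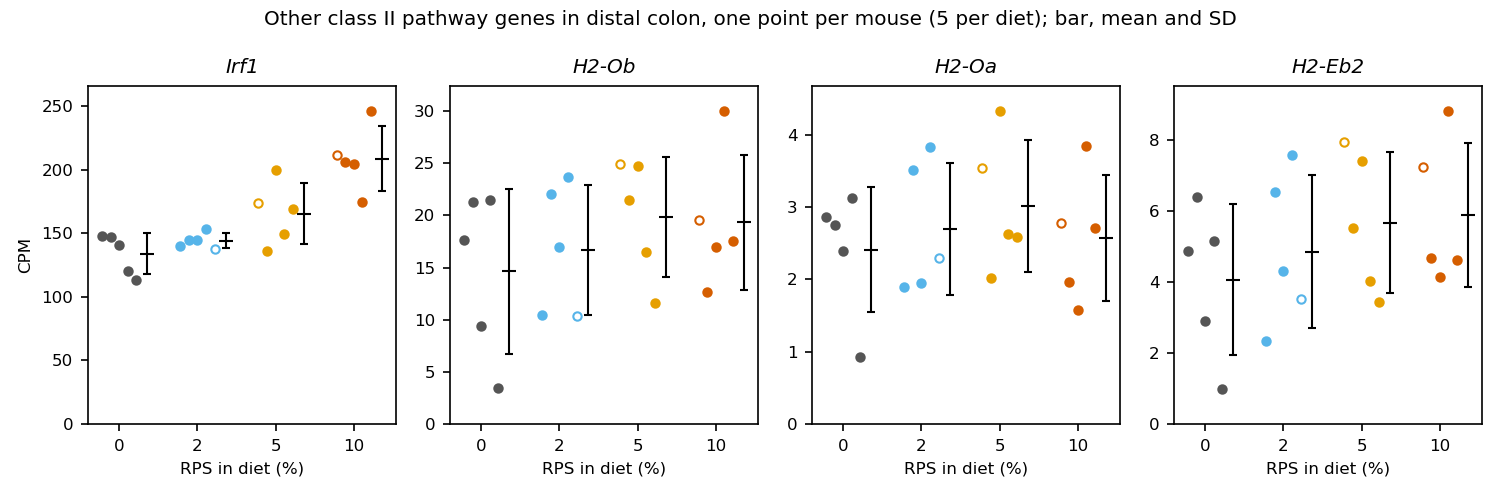
CPM of Irf1, H2-Ob, H2-Oa and H2-Eb2 in DC (y axes, from 0) against RPS in the diet in percent (x axis), with a point per mouse (n = 5 per diet), open points for the 3 mice whose labels differ, and the mean and SD in black. For Irf1 the 10% RPS mice, at 174.9 to 246.1 CPM, all lie above the controls, at 113.3 to 148.0 CPM, while for H2-Ob, H2-Oa and H2-Eb2 the groups overlap.

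The proteins that bind the X and Y boxes and the endosomal enzymes gave no call. Of the 7 genes for the RFX, CREB and NF-Y proteins, none was called at any RPS level, and the RFX subunit gene Rfx5 measured 10.2 ± 1.65 CPM in controls and 10.5 ± 1.53 CPM at 10% RPS (log2 fold change 0.03 ± 0.13). Ctss, the protease that cleaves the invariant chain, measured 354 ± 41.2 and 369 ± 18.8 CPM (0.06 ± 0.09). Ifi30, a thiol reductase that unfolds antigens, measured 106 ± 5.41 and 105 ± 6.69 CPM (−0.01 ± 0.06). Lgmn, an asparaginyl protease, measured 67.2 ± 11.3 CPM in controls and 55.3 ± 2.48 CPM at 5% RPS, a log2 difference of −0.28 ± 0.09 (unadjusted p = 0.00402, adjusted p = 0.346). The controls ranged from 56.1 to 85.4 CPM of Lgmn and overlapped with the 5% RPS mice. Ctsd at 10% RPS (−0.15, unadjusted p = 0.0401), Ctsl at 5% RPS (−0.17, unadjusted p = 0.0468) and Rfxank at 5% RPS (−0.15, unadjusted p = 0.0484) were the other genes lower at an unadjusted p under 0.05.

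Most of the variation of the 8 genes in log2 CPM lay between mice within diets, and the genes varied together. All 28 pairs correlated positively over the 20 mice in log2 CPM, with Pearson's r from 0.457 (H2-Eb1 with H2-DMb2) to 0.964 (H2-Ab1 with H2-Eb1), and all 28 passed a permutation test after adjustment over the 28 pairs (adjusted p at most 0.048). After the diet means had been subtracted, r lay between 0.464 and 0.972 and all 28 still passed. Without the 2 mice farthest from the median of the first gene of a pair, 26 passed. The pairs of H2-Eb1 with H2-DMb2 (r = 0.416, adjusted p = 0.078) and with Ciita (r = 0.436, adjusted p = 0.0707) no longer did without RS10_704 and RS10_725, while by rank over all 20 mice both passed (rho = 0.749, adjusted p = 0.000451, and rho = 0.618, adjusted p = 0.00452, by permutation).

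A pair of sets stood out among the 8 genes by the size of r. H2-Aa, H2-Ab1, H2-Eb1 and Cd74 correlated with each other at r between 0.937 and 0.964. Their ratios hardly moved: Cd74 over the sum of the 3 chains was 0.846 ± 0.0380 (CPM over CPM, n = 20 mice), a coefficient of variation of 4.49%, and H2-Eb1 over H2-Ab1 was 1.03 ± 0.0438, one of 4.26%. The other set was Ciita with H2-DMb2 (r = 0.880, rho = 0.806, each with an adjusted p of at most 5.6e-05, n = 20, permutation test). Without RS10_704 and RS10_708 their r was 0.778. Ciita correlated with Cd74 at r = 0.704 and with H2-Aa at r = 0.635, both passing, and the ratio of Ciita to Cd74 varied by 22.5%. Within diets the coefficient of variation was 29.0% for Ciita and 26.2% for H2-DMb2 and between 11.8 and 17.0% for the other 6 genes. The within-diet SD of log2 CPM put H2-DMb2 at the 87.0th and Ciita at the 85.5th percentile of all tested genes, and the other 6 lay between 36.03 and 57.9 on the same scale.

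**Figure D4:**
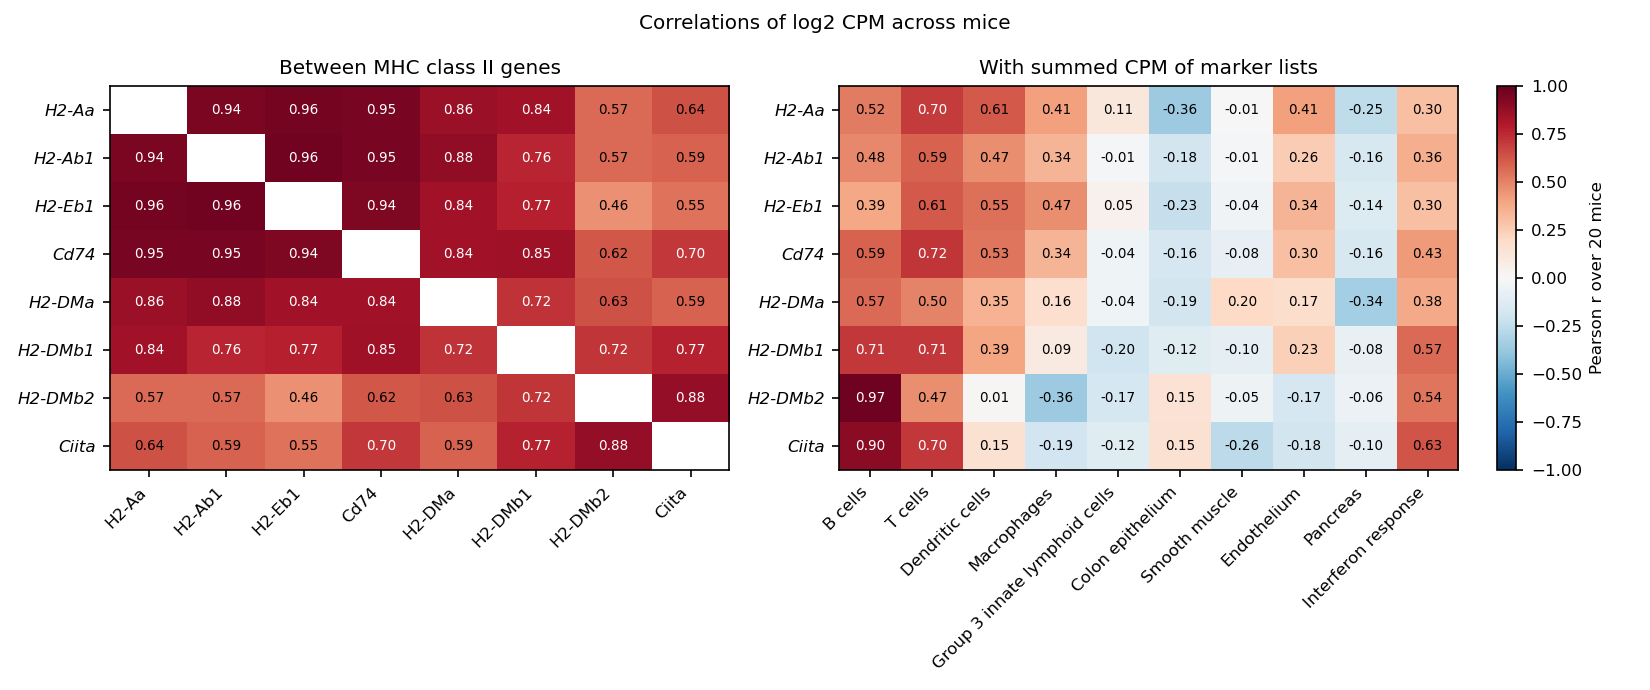
Pearson's r of log2 CPM over 20 mice, written in each cell and shown by colour from −1 to 1, between the 8 MHC class II genes (left) and between these genes and the log2 summed CPM of 10 marker lists (right). H2-DMb2 (0.97) and Ciita (0.90) follow the B cell list most closely, while H2-Aa, H2-Ab1, H2-Eb1 and Cd74 follow each other at 0.94 to 0.96.

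Markers of B cells and of T cells moved with several of the 8 genes. In these bulk samples fewer cells of a type and less RNA per cell cannot be told apart. Of 80 correlations between the 8 genes and 10 marker lists, 13 passed a permutation test after adjustment over the 80, all of them positive. Of these, 5 were with the B cell list, 6 with the T cell list, 1 with the dendritic cell list and 1 with the interferon response list. None of the 8 genes passed with the lists for macrophages, group 3 innate lymphoid cells, epithelium, smooth muscle, endothelium or pancreas by Pearson's r. Some passed with the macrophage list in other settings, given below. For the pancreas list, which RS10_721 alone raised to 4518 CPM, Ciita passed with a negative sign by rank (rho = −0.6105, adjusted p = 0.0311) and without RS10_721 and RS10_784 (r = −0.753, adjusted p = 0.0066, permutation test). In controls this sum, 520.1 CPM on average, was almost all Cela1 (519.5 CPM), and Pnlip measured 0.165 CPM. These values of Ciita are therefore mostly correlations with Cela1 and not with pancreatic genes as a set.

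The B cell list held 10 genes, such as Ms4a1 and Cd79a, and all 10 had counts in every mouse. Their summed level ran from 14.7 to 138 CPM in controls, from 66.5 to 165 CPM at 2%, from 86.7 to 167 CPM at 5% and from 89.4 to 168 CPM at 10% RPS. RS10_708 was the lowest mouse at 14.7 CPM, followed by RS10_704 at 64.9 CPM, and the highest was RS10_731 at 167.7 CPM, also the highest mouse for Ciita. H2-DMb2 followed this sum at r = 0.974 (rho = 0.935, adjusted p = 0.0004 by permutation, n = 20), at 0.972 within diets and at 0.905 without RS10_704 and RS10_708. Ciita followed it at r = 0.901 (rho = 0.815, adjusted p = 0.0004), at 0.898 within diets and at 0.867 without those mice. H2-DMb1 (r = 0.711), Cd74 (0.588) and H2-DMa (0.567) also passed, but H2-DMb1 and H2-DMa did not without the same mice (r = 0.563, adjusted p = 0.0674, and r = 0.467, adjusted p = 0.143). H2-Aa (0.520), H2-Ab1 (0.483) and H2-Eb1 (0.386) did not pass, and without RS10_704 and RS10_708 their r was 0.651, 0.656 and 0.659 and all 3 passed.

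The B cell markers lay above controls at each RPS level without being called. All 10 log2 fold changes were positive at 10, 5 and 2% RPS, with medians of 0.48, 0.58 and 0.33, and 0 of 10 were called or reached an unadjusted p under 0.05 by edgeR. In the alternative analyses 0 of 10 were called and at most 2 reached that p, at 5% RPS. Without RS10_708 the medians were 0.22, 0.30 and 0.05. The part of the B cell markers in the values of Ciita and H2-DMb2 by diet was not tested.

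**Figure D5:**
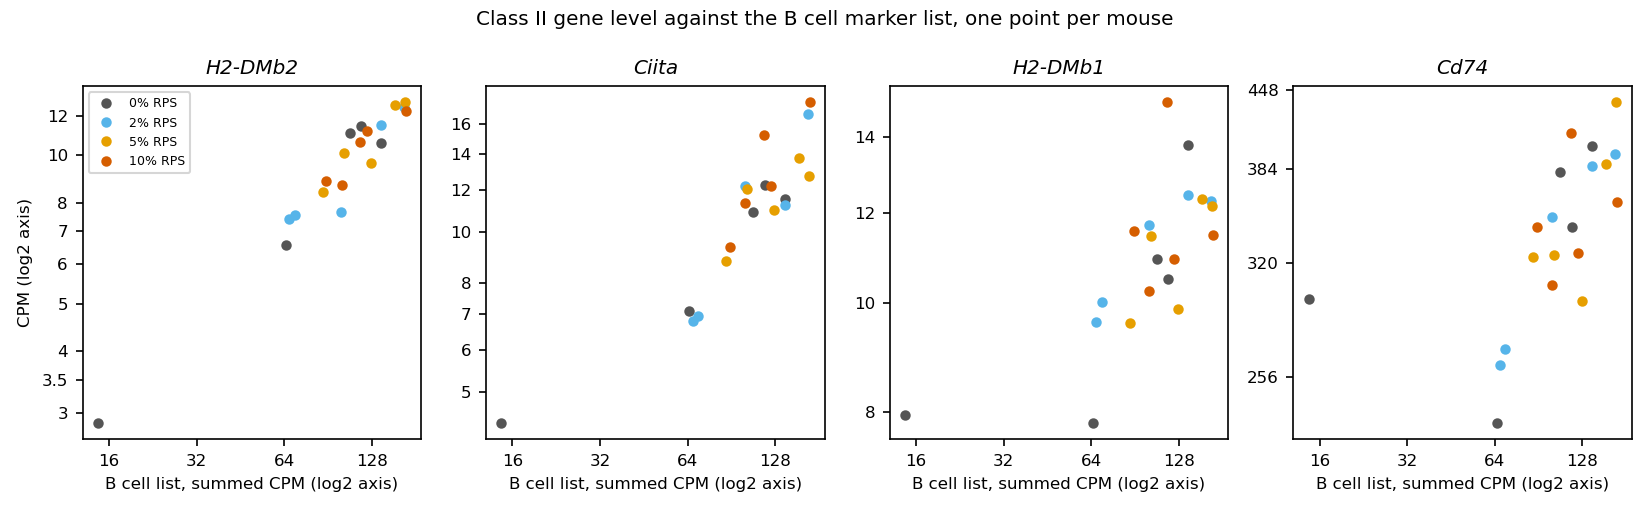
CPM of H2-DMb2, Ciita, H2-DMb1 and Cd74 (y axes, log2 scale) against the summed CPM of 10 B cell markers (x axis, log2 scale), with a point per mouse coloured by RPS level. H2-DMb2 and Ciita line up with the sum (r = 0.97 and 0.90) down to RS10_708 at 14.7 CPM on the far left, while that mouse holds 298.5 CPM of Cd74.

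RS10_708 separated the genes of the list. It was the lowest of the 20 mice for H2-DMb2, Ciita and the B cell sum. Its Cd74 was 298.5 CPM, its H2-Aa 131.0 CPM and its H2-Eb1 130.0 CPM, each inside the range of the other controls. It also held the highest macrophage sum, at 544.5 CPM over 10 genes, where the median of all mice was 340.4 CPM.

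The T cell list (8 genes, among them Cd3e and Cd4) summed to 10.6 to 25.8 CPM per mouse, with diet means of 18.3, 16.9, 17.1 and 18.2 CPM. In controls this sum was mostly Cd4 (7.46 CPM) and Lck (4.68 CPM). It correlated most with Cd74 (r = 0.718), H2-DMb1 (0.7101), Ciita (0.704) and H2-Aa (0.701), each with an adjusted p of at most 0.00686 by permutation. H2-Eb1 (0.612) and H2-Ab1 (0.592) passed as well, and without RS10_703 and RS10_748 their r was 0.584 (adjusted p = 0.059) and 0.539 (adjusted p = 0.0805). The dendritic cell sum lay between 19.4 and 36.5 CPM and passed with H2-Aa only (r = 0.611, adjusted p = 0.0331), which without RS10_704 and RS10_784 gave r = 0.422. After the diet means had been subtracted, H2-Aa (0.623), H2-Eb1 (0.563) and Cd74 (0.559) passed with the dendritic cell list. Macrophage markers summed to 407 ± 95.6 CPM in controls and to 336 ± 30.8, 300 ± 33.2 and 335 ± 39.7 CPM at 2, 5 and 10% RPS. All 10 log2 fold changes were negative at each level, with a median of −0.54 at 5% RPS (−0.37 without RS10_708). There 9 reached an unadjusted p under 0.05, beside 9.19% of all genes, and 4 to 9 did so in the alternative analyses. The macrophage list was chosen with earlier results of these data known. Setting it beside all genes is therefore no test of whether it responds more than other genes. By edgeR 0 of 10 were called, and at most 2 in an alternative analysis, whose share of all genes called is not given here. The r of the macrophage sum with the 8 genes lay between −0.360 and 0.466. Without RS10_703 and RS10_708 it was 0.370 for H2-DMb2 and 0.395 for Ciita, and neither passed. For H2-Aa it was then 0.679, which passed (adjusted p = 0.0233, permutation test). By rank over all 20 mice H2-Eb1 passed (rho = 0.6045, adjusted p = 0.0327, permutation test). After the diet means had been subtracted, H2-Eb1 (0.633), H2-Aa (0.579) and Cd74 (0.560) passed with the macrophage list.

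In the interferon response list 4 of 8 genes rose with RPS by the test of the trend, where 2.1% of all genes passed. The list was chosen with earlier results of these data known, and it holds Isg15, Mx1, Oas3, Rsad2 and Zbp1. The paper already reports these named genes as raised by RPS in DC. Setting the list beside all genes is therefore no test of whether it responds more than other genes. The 8 genes of the list summed to 73.8 ± 14.3, 86.2 ± 10.5, 103 ± 33.2 and 123 ± 21.9 CPM with rising RPS. At 10% RPS all 8 log2 fold changes were positive with a median of 0.94, and 0 of 8 were called by edgeR. An unadjusted p under 0.05 was reached by 7, beside 15.2% of all genes. Up to 5 were called in an alternative analysis, whose share of all genes called is not given here. Ciita correlated with this sum at r = 0.625 (adjusted p = 0.0305), but at 0.492 after the diet means had been subtracted (unadjusted p = 0.0268, adjusted p = 0.0837) and at 0.549 without RS10_719 and RS10_731 (adjusted p = 0.079), so it did not pass the adjusted test within diets or without these mice. The other 7 genes did not pass, with r between 0.303 and 0.567. The epithelial list summed to 10934 ± 1586, 11009 ± 867, 12486 ± 1364 and 12637 ± 1367 CPM with rising RPS, all 8 of its log2 fold changes were positive at 5 and 10% RPS, and 1 of 8 passed the test of the trend. The part of these lists in the values of the class II genes by diet was not tested.

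Genes with the most similar pattern were sought among 15222 tested genes whose mean level reached 1 CPM, as a description over 20 mice. The mean log2 CPM of H2-Aa, H2-Ab1, H2-Eb1 and Cd74 was closest to Hcls1 (r = 0.904), Trpm2 (0.857), Lcp1 (0.850), Laptm5 (0.845) and Wdfy4 (0.837). Runx3 (0.835), Sh2d2a (0.821), Sla (0.801), Unc93b1 (0.785) and Arhgap9 (0.784) completed the nearest 10. Lcp1 encodes an actin-bundling protein of leukocytes. Without RS10_704 the same 10 genes had r between 0.697 and 0.894. Closest to Ciita were Traf3ip3 (0.945), Ms4a1 (0.938), Slamf6 (0.938), H2-Ob (0.937) and Stap1 (0.935). Ms4a1, the B cell surface protein CD20, is also in the B cell list, and H2-Ob is the chain whose promoter was printed with those of the list.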

How the data were processed

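RNA of 20 DC samples was sequenced from 1 stranded poly(A) library per mouse with single-end reads. The authors trimmed low-quality bases, mapped the reads to GRCm39 in CLC Genomics Workbench and deposited raw read counts per gene, not normalised and not pooled. The strand setting and the handling of reads matching several genes are not given in the sources used here. GENCODE M39 gave symbols for 26338 of 26619 identifiers.

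Counts were analysed in R 4.3.3 with edgeR 4.0.16. Genes were filtered with filterByExpr (minimum count 10, 17893 genes kept of 26004 with a count), scaled by TMM and tested with the quasi-likelihood F-test (robust) in 1 fit over 4 diets, and p-values were adjusted by Benjamini-Hochberg over these genes. Calls needed an adjusted p no higher than 0.05 and, except for the trend over RPS percent and the test of any difference, a 1.5-fold change. Correlations used log2 CPM with a prior count of 2 and 100000 permutations, whose smallest p is 1e-05. The procedure was tested on simulated data. Cage and litter are not given in the sources used here.

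The 8 genes, the pathway list and the marker lists were chosen with earlier results of these data known. Named were the 8 genes, fixed pathway genes, pathway genes with an unadjusted p under 0.05, and the genes nearest by correlation. Pathway genes at an unadjusted p under 0.05 were named after their values were seen, and some listed genes enter the counts and sums but are not reported here. Alternatives were DESeq2 1.42.0, limma-voom (limma 3.58.1), RLE scaling, TMM without immunoglobulin genes, no filter on low counts, no robust estimation, H2-DMb1 and H2-DMb2 added, the other diet label, the omission of the 3 mice with differing labels, fits of 2 diets, and each mouse left out. Also, RS10_703, RS10_719 and RS10_721 were left out together, chosen after seeing the data.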

Additional observations from a re-analysis of the deposited data

Results flagged for a closer look

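Within each diet group of 5 mice, the highest and lowest mouse were compared with the rest by Dixon's gap criterion, over the 8 genes, 8 pathway genes and the marker lists. It singled out 6 of 104 groups, where chance gives about 1 in 20.

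Among the class II genes, control RS10_704 held 87.8 CPM of H2-Eb1, and the next lowest control 130.0 CPM. The 10% RPS mouse RS10_725 held 15.0 CPM of H2-DMb1, with the next highest at 11.6 CPM. The interferon response list summed to 160.5 CPM in RS10_719, at 5% RPS, against 101.3 CPM in the next mouse. The dendritic cell list summed to 19.4 CPM in control RS10_704 against 29.4 CPM in the next control. RS10_721, at 5% RPS, held the lowest smooth muscle sum of its group, 5553 CPM against 8412 CPM, and the highest pancreas sum, 4518 CPM against 487.0 CPM. H2-DMb2 (2.86 CPM) and Ciita (4.37 CPM) of RS10_708 were not singled out by this criterion, since RS10_704 was also low.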

How the results depend on the processing

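None of the 8 genes was called in any of 153 alternative counts. At 10% RPS the number with an unadjusted p under 0.05 was 1 with DESeq2 and with limma-voom (Ciita) and 1 without RS10_703, RS10_719 and RS10_721 together (H2-DMb1), and leaving out 1 mouse gave 0 to 2, the 2 (H2-DMb1 and Ciita) without RS10_703. For the trend it was 1 with DESeq2 and with limma-voom, and 0 to 1 leaving out 1 mouse. Pathway genes called at 10% RPS fell from 1 to 0 by the other label, without the 3 mice with differing labels and with only 2 diets in the fit (Irf1 adjusted p = 0.055), and were 0 to 1 leaving out 1 mouse, the 0 without RS10_784. For the trend they were 0 by the other label, 2 with DESeq2 and without RS10_703, RS10_719 and RS10_721 together, and 1 to 2 leaving out 1 mouse, the 2 without RS10_719 or RS10_727. The cause was not tested.

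Of 741 alternative fold changes of the 8 genes, 53 changed sign, none of them called and none over 0.11 in size (log2). By the other label the change at 10% RPS was −0.081 for H2-Aa, −0.091 for H2-Ab1, −0.099 for H2-Eb1 and −0.055 for Cd74, and at 2% RPS 0.086 for H2-Ab1. Without the 3 mice with differing labels it was −0.029 for H2-Aa, −0.032 for H2-Ab1 and −0.058 for H2-Eb1 at 10%, −0.038, −0.013 and −0.053 for these genes and −0.017 for H2-DMa at 5%, and 0.016 for H2-Ab1 at 2% RPS. H2-Eb1 at 2% RPS, 0.0001, became −0.0012 with DESeq2, −0.0014 with RLE scaling, −0.0013 without a filter and −0.00013 with 2 diets in the fit. Leaving out 1 mouse gave at 10% RPS −0.050 to 0.13 for H2-Aa, −0.061 to 0.12 for H2-Ab1, −0.065 to 0.11 for H2-Eb1 and −0.025 to 0.16 for Cd74. At 5% RPS it gave −0.090 to 0.087 for H2-Aa, −0.050 to 0.13 for H2-Ab1, −0.092 to 0.071 for H2-Eb1, −0.027 to 0.088 for H2-DMa and −0.014 to 0.17 for Cd74. At 2% RPS it gave −0.067 to 0.11 for H2-Aa, −0.15 to 0.030 for H2-Ab1, −0.11 to 0.056 for H2-Eb1, −0.012 to 0.096 for H2-DMa, −0.090 to 0.26 for H2-DMb2 and −0.097 to 0.085 for Cd74. Pairs of genes passing the correlation test were 28 with a prior count of 0.5 and with RLE scaling. No paired analysis was possible because mouse numbers are unique to a mouse and shared by no groups.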
